A study of Mus musculus with 2 samples.

Results

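The lysosomal genes described here are 43 genes that encode hydrolases, membrane proteins, proton pump subunits and transcription factors of the lysosome, Cd68 among them. They were found on the array as the probe sets whose symbol in the platform's annotation is exactly the name of a member. All 43 were measured, by 44 of the 21789 probe sets that carry 1 gene symbol, and they are 43 of the 19938 genes so named. Only Mitf had more than 1 probe set, and no probe set was shared between a member and another gene.

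The cells were primary mouse myoblasts of the genotype Rosa-CreER / MLL1 fl/fl, in which Cre recombinase enters the nucleus when 4-hydroxytamoxifen (4-OHT) is bound and then deletes part of Mll1, also named Kmt2a. The Control culture received 0.01% ethanol for 7 days, and the culture labelled MLL1 KO, called Mll1 cKO here, received 500 nM 4-OHT in the same vehicle for 7 days. Both were then kept for 3 days without these additions according to the labels, whereas the methods of the study give a shorter washout. The medium of both was Ham's F10 with serum and FGF. They came from the same line of cells, both carried the floxed alleles and the Cre transgene, and the Rosa26 promoter drives the Cre in all cell types. No culture with 4-OHT and intact Mll1 was analysed here, so exposure to the drug, Cre activity and the loss of Mll1 cannot be told apart.

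RNA of each culture was hybridised to 1 Affymetrix MoGene 1.0 ST array, and the values are log2 signals after RMA, the authors' normalization. With 1 array in each condition, no standard error, test or p-value could be had, and precision is limited by this number of arrays. Where a pair of signals is given for a gene, the Control value comes first. Differences are log2 values, with the Control signal subtracted from the Mll1 cKO signal, and folds are the same differences on a linear scale. Kmt2a had signals of 9.44 and 9.66, but the array summarises probes along the whole transcript, so this value does not check the deletion. Myoblast identity was checked on 12 markers, which all exceeded 7 in at least 1 of the arrays. Of these, 4 were higher and 8 lower, with a median difference of -0.08. Among all genes over 7 in the higher array, 59.0% were higher and 40.8% lower. Myod1, the strongest of them, had signals of 12.15 and 12.27, and Myf5, the only marker over 2-fold lower, had 9.51 and 6.14.

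Lysosomes are the acidic compartments in which cells digest proteins, lipids, glycans and the cargo of autophagy. A proton pump, the V-ATPase, acidifies the lumen, heavily glycosylated membrane proteins line its wall, and soluble hydrolases are carried in by mannose 6-phosphate and other receptors. TFEB, TFE3 and MITF are related transcription factors that enter the nucleus when mTORC1 is inactive and bind E-box sequences in the promoters of many lysosomal genes. In muscle, lysosomes take part in autophagy and membrane turnover, and defects of their enzymes cause storage diseases, of which Pompe disease, due to loss of acid alpha-glucosidase, affects muscle itself.

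Lysosomal genes were higher in the Mll1 cKO array almost throughout, by less than 2-fold for all but 1. Of the 43 members, 40 were higher and 3 were lower, against 41.6% higher and 55.6% lower among all 19938 genes. The median log2 difference of the members was 0.31, and that of all genes was -0.05. The middle of the members' distribution, from its 25th to its 75th percentile, ran from 0.18 to 0.57. By contrast, the same percentiles of all genes were -0.23 and 0.15.

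Cd68 was the only member over 2-fold higher, and no member was over 2-fold lower. Among all genes, 1.22% were higher by over 2-fold and 0.110% were lower by as much, so a count of 1 in 43 says little about the members. At 1.5-fold, 11 members were higher and 0 were lower, against 5.09% and 2.17% of all genes. These 11 were Cd68, Cln3, Hexa, Tpp1, Atp6v0d1, Smpd1, Ctsf, Ctsd, Gm2a, Gaa and Ctsa. Among them, 4 genes, Ctsa, Gaa, Gm2a and Ctsf, no longer passed 1.5-fold after removal of a trend on signal or after quantile normalization, which left 7 members in each case, against 5.33% and 4.16% of all genes. These 4 lay close to the cut-off, and their differences stayed similar. Ctsa had 0.59 as deposited and 0.58 in both settings, Gaa and Gm2a had 0.60 as deposited and 0.56 in both, and Ctsf had 0.63 as deposited and then 0.55 and 0.51. Cd68 stayed over 2-fold in both settings, with differences of 1.34 and 1.29, as did 1.35% and 1.01% of all genes. With the trend removed, 41 members were higher and 2 lower against 50.8% and 49.2% of all genes, and after quantile normalization 38 were higher and 5 lower against 39.0% and 61.0%. In the order of all genes by difference, 34 members lay in the upper 25% and 14 in the upper 10%.

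Dim probe sets were mostly lower in the Mll1 cKO array, and most members were not dim. Of the 3438 probe sets with a mean log2 signal from 4 to 5, 18.5% were higher, whereas 62.8% of the 2623 between 7 and 8 were. Among the 8722 genes with a probe set over 7 in the higher array, 59.0% were higher and 40.8% lower, and the median difference was 0.06. The members in this set numbered 39, of which 38 were higher and 1 lower, and their median was 0.33. In the same set 11 members were over 1.5-fold higher, against 7.59% of the genes. When each member probe set was read against the median of all probe sets within the same unit of mean signal, 40 of 44 lay above it.

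**Figure D1:**
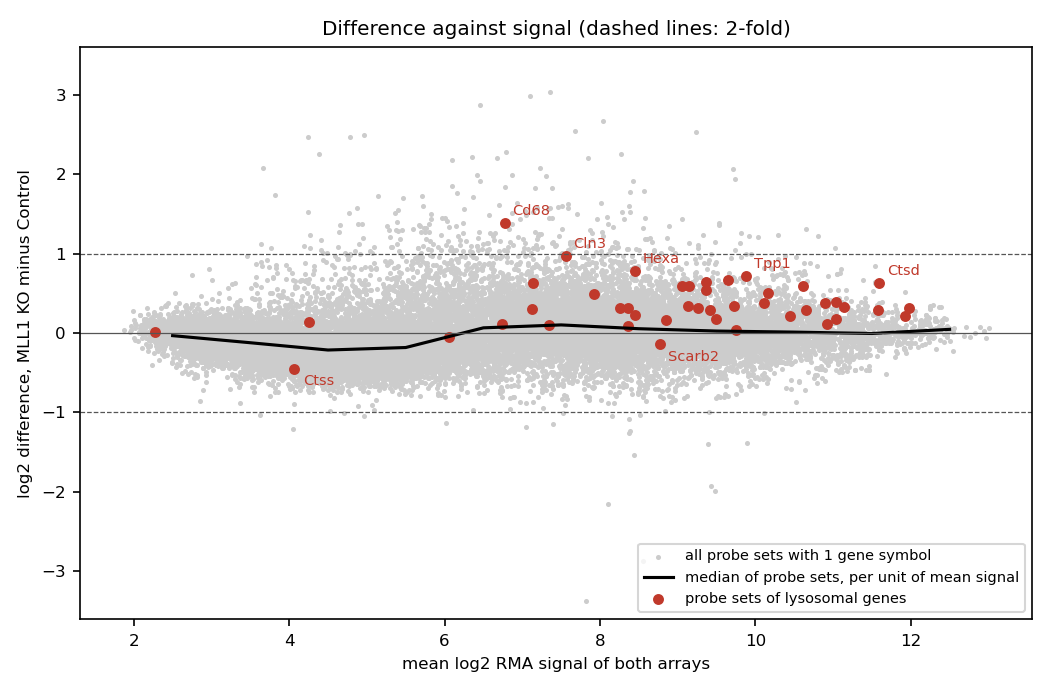
The log2 difference (Mll1 cKO minus Control) of each probe set with 1 gene symbol is plotted against its mean log2 RMA signal in both arrays, with the 44 probe sets of lysosomal genes in red and the median per unit of signal as a black line. Most red points lie above the black line, Cd68 alone lies above the dashed line of 2-fold, and Ctss, Scarb2 and Tfeb lie below 0.

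Among 8 membrane proteins, 7 were higher, with a median difference of 0.20. Cd68, a sialomucin of the LAMP family in late endosomes and lysosomes that is widely used as a macrophage marker, had signals of 6.08 and 7.47. This is a 2.62-fold higher level, and 67 of the 19938 genes had a larger increase. Cln3, which encodes a lysosomal transmembrane protein mutated in juvenile Batten disease, had signals of 7.07 and 8.04 and was 1.96-fold higher, just under the 2-fold cut-off. When the median of all probe sets was set to 0, Cln3 passed it, with a log2 difference of 1.02. With the trend on signal removed Cln3 had 0.89, and after quantile normalization 0.87, both under the cut-off.

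The other membrane proteins differed far less than Cd68 and Cln3. Lamp2, which is needed for fusion with autophagosomes and for chaperone-mediated autophagy, had signals of 10.51 and 10.79 and was 1.22-fold higher. Lamp1 had 10.94 and 11.12, and the tetraspanin gene Cd63 had 11.82 and 12.03, differences of 0.18 and 0.21. Npc1, the membrane transporter that exports cholesterol from the lysosome, had a difference of 0.18, and Mcoln1, the calcium channel TRPML1, had 9.73 and 9.77. Scarb2, which encodes LIMP2, the receptor that carries glucocerebrosidase to lysosomes, was the only membrane protein gene that was lower, with signals of 8.84 and 8.71.

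**Figure D2:**
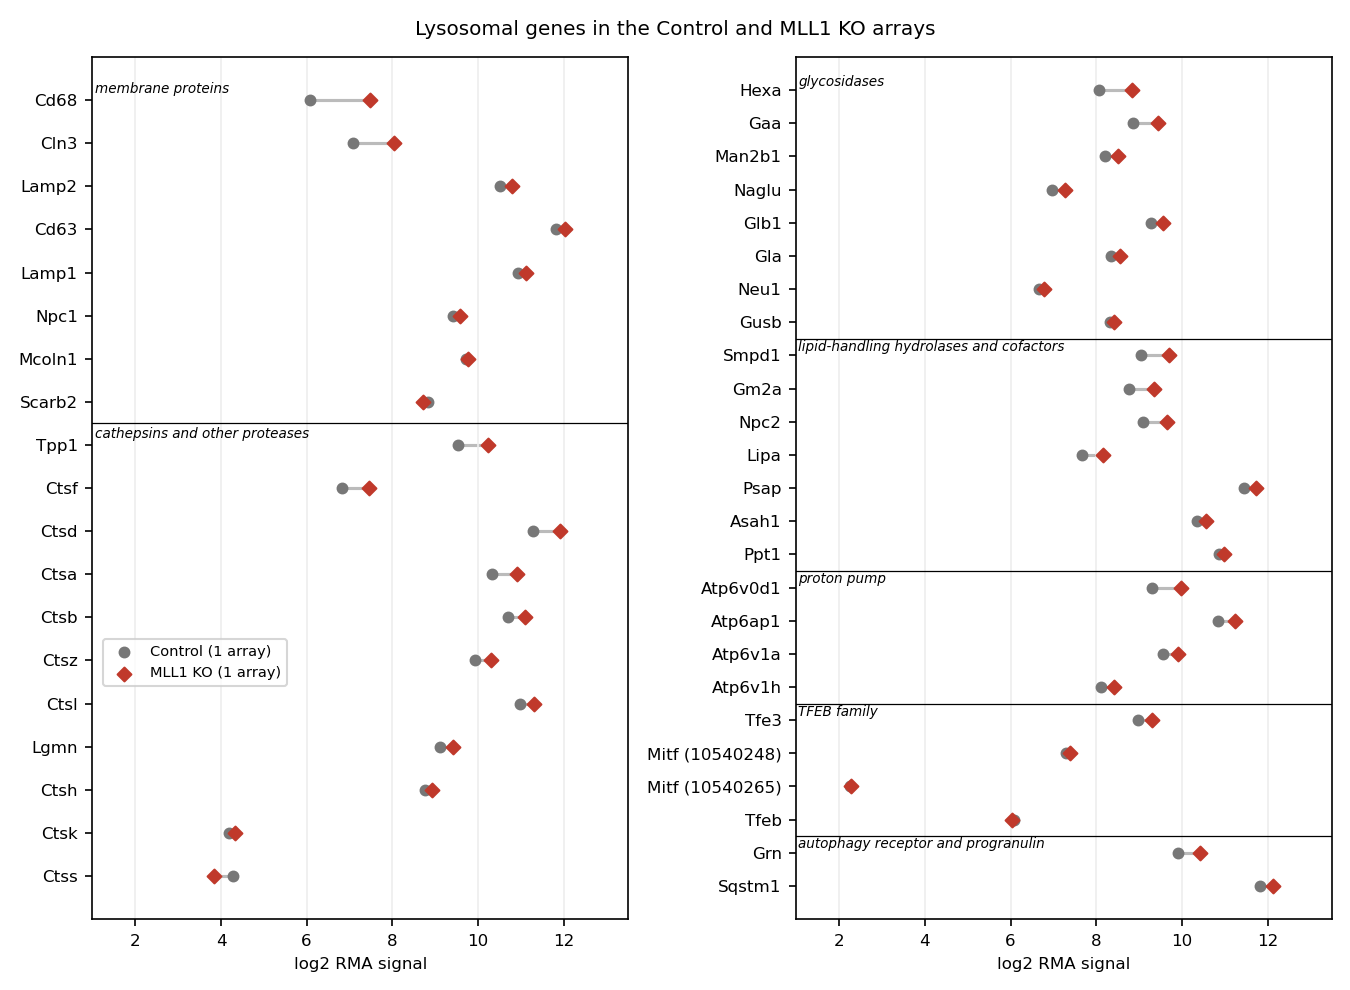
Log2 RMA signals of the 44 probe sets of the 43 lysosomal genes are shown for the Control array (grey circles) and the Mll1 cKO array (red diamonds), grouped by role and ordered by difference within a role, with the probe set number given for the pair of Mitf. The red diamond lies to the right of the grey circle for all but Scarb2, Ctss and Tfeb, and the widest gaps are those of Cd68 and Cln3.

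Since Cd68 marks macrophages, markers of leukocytes were read beside it. Of 28 measured markers, 27 were lower and 1 was higher, with a median difference of -0.25. Their signals ranged from 3.04 to 6.51 in the Control array and from 2.68 to 7.52 in the Mll1 cKO array, and only Cd53 exceeded 7. Cd53, a leukocyte tetraspanin, had signals of 6.51 and 7.52, a level 2.02-fold higher. The defining markers of leukocytes and macrophages were dim and slightly lower, since Ptprc (CD45) had 3.83 and 3.69, Csf1r had 4.52 and 4.28, Adgre1 (F4/80) had 3.48 and 3.24, and Itgam had 4.04 and 3.98. The median of their Control signals was 4.44, and 18.5% of all probe sets with mean signals from 4 to 5 were higher. The median difference of the leukocyte markers was -0.065 once the trend on signal was removed. In a bulk RNA sample, fewer cells of a type and less RNA per cell cannot be told apart.

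**Figure D3:**
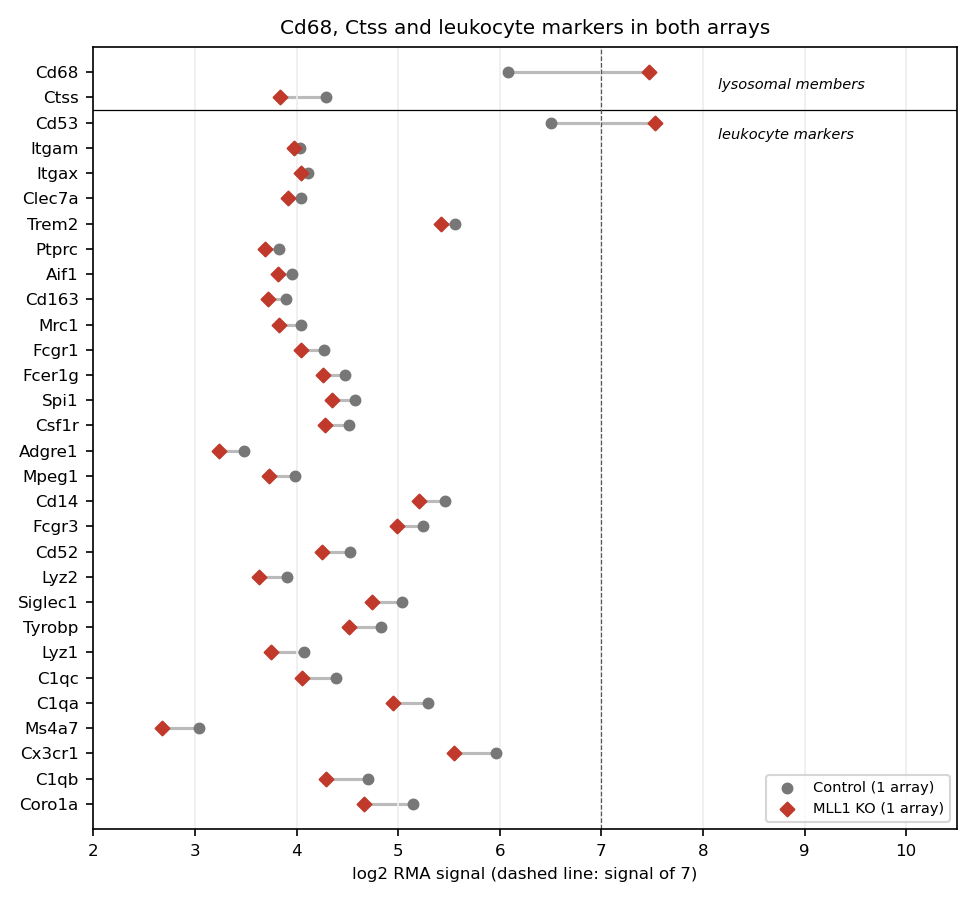
Log2 RMA signals of Cd68, Ctss and 28 leukocyte markers are shown for the Control array (grey circles) and the Mll1 cKO array (red diamonds), with a dashed line at a signal of 7. Cd68 and Cd53 lie to the right in the Mll1 cKO array, whereas the other 27 markers lie at weak signals and to the left.

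Markers of other cell types varied by list. All 8 markers of osteoclasts, the bone-resorbing cells that use Ctsk and the proton pump, were under 7, with 7 lower and 1 higher, and the strongest was Itgb3 with signals of 5.56 and 5.78. Of all probe sets with mean signals from 4 to 5 and from 5 to 6, 18.5% and 30.4% were higher, and the osteoclast median of -0.15 turned to 0.040 with the trend on signal removed. The 9 endothelial markers were under 7 too, with 8 lower, and their strongest was Vwf with 5.56 and 5.28. Their median Control signal lay between 4 and 5, and 18.5% of all probe sets with such mean signals were higher. The endothelial median of -0.26 became -0.058 with the trend on signal removed. Of 13 listed fibroblast markers 12 were analysed, since no probe set used here carried the symbol Ly6a, so the counts say nothing about Ly6a. Of the 12, 10 were lower and 1 higher, against 55.6% and 41.6% of all genes. Their median difference was -0.21, or -0.17 with the trend on signal removed, and their median Control signal too lay between 4 and 5. The strongest of them, the collagen gene Col3a1, had 8.12 and 7.67.

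Among 7 markers of smooth muscle and pericytes, 4 were lower and 3 were higher. Both that exceeded 7 in either array were higher, with 8.10 and 8.47 for the receptor gene Notch3 and 6.95 and 7.74 for Rgs5, a pericyte marker named after its values were seen, which was 1.74-fold higher. The median of this list was -0.087, and it turned to 0.078 with the trend removed and to 0.59 for the 2 genes with a signal over 7. The part of such cells in the values of the lysosomal genes was not tested.

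The lysosomal proteases were higher as a group, with 10 of 11 higher and a median difference of 0.38. Tpp1, a serine protease that removes tripeptides from the ends of proteins, had signals of 9.52 and 10.24 and was 1.64-fold higher. Ctsd, the main aspartic protease of lysosomes, had 11.28 and 11.90 and was 1.54-fold higher. Ctsf, a cysteine cathepsin, had 6.83 and 7.45, and Ctsa, a carboxypeptidase that also protects beta-galactosidase and neuraminidase in a complex, had 10.32 and 10.91. The broadly expressed cysteine cathepsins Ctsb, Ctsl and Ctsz were 1.30-fold, 1.26-fold and 1.30-fold higher, from Control signals of 10.70, 10.97 and 9.92. Lgmn, an asparaginyl endopeptidase that processes other cathepsins, was 1.24-fold higher, and Ctsh was 1.12-fold higher.

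The cathepsin genes Ctsk and Ctss, which lie next to each other in the RefSeq order of coding genes, were the only proteases that did not exceed 7 in either array. Ctsk, the collagen-degrading cathepsin of osteoclasts, had 4.18 and 4.33. Ctss, a cathepsin of antigen-presenting cells, had 4.29 and 3.83 and was 1.37-fold lower, the lowest difference of the 43 members at -0.45. Ctsk and Ctss both lie in the range of mean signals from 4 to 5, in which 18.5% of all probe sets were higher.

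All 8 glycosidase genes were higher, with a median difference of 0.30. Hexa, the alpha subunit of beta-hexosaminidase, whose loss causes Tay-Sachs disease, had signals of 8.05 and 8.84 and was 1.72-fold higher. Gaa, the acid alpha-glucosidase that breaks down glycogen in muscle lysosomes, had 8.85 and 9.45 and was 1.51-fold higher. Man2b1, Naglu, Glb1 and Gla, which remove mannose, N-acetylglucosamine, beta-galactose and alpha-galactose, followed at 1.24-fold, 1.23-fold, 1.23-fold and 1.17-fold. The sialidase gene Neu1 had 6.68 and 6.79, and Gusb, the beta-glucuronidase, had the lowest difference of the group, with 8.32 and 8.41.

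The 7 genes of lipid breakdown were all higher and had the highest median of the roles with over 2 members, at 0.49. Smpd1, the acid sphingomyelinase, had signals of 9.05 and 9.69 and was 1.56-fold higher. Gm2a, the activator that presents ganglioside GM2 to hexosaminidase, had 8.76 and 9.36 and was 1.51-fold higher, so both this cofactor and Hexa of the same reaction passed 1.5-fold. Npc2, which hands cholesterol to NPC1, had 9.10 and 9.64, a difference of 0.54, whereas that of Npc1 was 0.18. Lipa, the acid lipase of cholesteryl esters and triglycerides, was 1.40-fold higher, and Psap, the precursor of the saposins, had 11.44 and 11.73. Asah1, the acid ceramidase, and Ppt1, which removes palmitate from proteins, showed the smallest differences, 0.21 and 0.12.

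The 4 proton pump members were all higher, with differences between 0.31 and 0.67. Atp6v0d1, a subunit of the membrane sector, had signals of 9.31 and 9.98 and was 1.59-fold higher. Atp6ap1, an accessory protein of pump assembly, had 10.84 and 11.24. The catalytic subunit gene Atp6v1a and the regulatory subunit gene Atp6v1h had differences of 0.34 and 0.31.

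The genes of the TFEB family, the transcription factors among the members, did not pass 1.5-fold. Tfeb had signals of 6.09 and 6.04, and Mitf had 7.29 and 7.39 in its brighter probe set and 2.26 and 2.28 in the other. Tfe3 had 8.96 and 9.31 and was 1.27-fold higher, the only member of the family with a signal over 8. The median of these 3 genes was 0.06, and it was -0.045 after quantile normalization, in both cases the value of Mitf. Over a signal of 7 only Tfe3 and Mitf remained, with a median of 0.22. Over 8 the value of 0.35 was that of Tfe3 alone. RNA levels do not show where these proteins were in the cell.

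The remaining members, an autophagy receptor and a secreted lysosomal protein, were both higher. Sqstm1, which encodes the receptor p62 that links ubiquitinated cargo to autophagosomes, had signals of 11.83 and 12.13 and was 1.24-fold higher. Grn, the precursor of the granulins, had 9.91 and 10.41 and was 1.42-fold higher.

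Promoters were read because nearly all members were higher and because TFEB, TFE3 and MITF bind a known element, the CLEAR sequence. Windows from 250 bases before to 50 bases after the annotated start were taken from RefSeq on GRCm38.p6, which held at least 1 window for 38 of the members and for 17492 coding genes. The E-box CACGTG was found in 14 of the 38 members (36.8%) and in 8.91% of all coding genes. The 8-base core TCACGTGA, which holds this E-box, was found in 7 members (18.4%) and in 1.41% of all, and the same core with a G before it and a C after it in 1 member, Cln3, and in 0.469% of all. Each of these motifs reads the same on both strands, the longer ones hold the shorter ones, and only exact matches were counted. Such sequences were already known in promoters of many lysosomal genes, so a larger share here would hold whatever the arrays showed. The counts use no array values, and a part of these factors in the differences was not tested.

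Stretches around the 8-base core, in capitals, are shown for the 7 members that hold it, in order of their difference, since they show how the element sits in genes that differed much and little. They are written 5′ to 3′ on the strand of the gene.
Cln3: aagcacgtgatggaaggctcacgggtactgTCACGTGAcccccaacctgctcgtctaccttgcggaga
Atp6v0d1: agccaggccctactgcggTCACGTGAgacg
Ctsd: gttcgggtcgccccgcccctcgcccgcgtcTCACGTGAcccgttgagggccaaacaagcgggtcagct
Ctsa: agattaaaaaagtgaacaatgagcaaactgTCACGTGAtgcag
Atp6v1a: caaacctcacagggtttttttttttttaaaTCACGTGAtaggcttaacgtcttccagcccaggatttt
Gla: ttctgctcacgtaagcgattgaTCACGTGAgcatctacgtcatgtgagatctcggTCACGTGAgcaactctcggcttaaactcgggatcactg
Mcoln1: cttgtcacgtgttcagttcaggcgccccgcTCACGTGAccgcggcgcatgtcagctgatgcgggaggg
The positions on GRCm38.p6 are chr7:126583321-126583388 on the minus strand for Cln3, chr8:105566057-105566086 on the minus strand for Atp6v0d1, chr7:142387889-142387956 on the minus strand for Ctsd and chr2:164833730-164833772 on the plus strand for Ctsa. They are chr16:44139354-44139421 on the minus strand for Atp6v1a, chrX:134601163-134601255 on the minus strand for Gla and chr8:3500443-3500510 on the plus strand for Mcoln1. In Atp6v0d1 the core spans the annotated start, in Gla it occurs at 2 places of the stretch, and in Ctsa a second core lies after the start and is not shown.

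Members with the core differed widely among themselves. Their median was 0.59, from 0.97 for Cln3 to 0.04 for Mcoln1, and that of the 7 members with an E-box but no core was 0.31. The 24 members with neither had a median of 0.31 as well, from -0.45 for Ctss to 1.39 for Cd68, and the 3 lower members, Scarb2, Ctss and Tfeb, were among them. With 7 genes in each of the smaller classes these medians are descriptions. Cd68, the member with the largest difference, had none of these letters in its window, and the 120 bases before its start are shown for comparison, from chr11:69666171-69666290 on the minus strand.
Cd68: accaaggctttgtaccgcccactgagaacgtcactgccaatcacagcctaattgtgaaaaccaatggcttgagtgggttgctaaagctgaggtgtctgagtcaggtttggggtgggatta

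**Figure D4:**
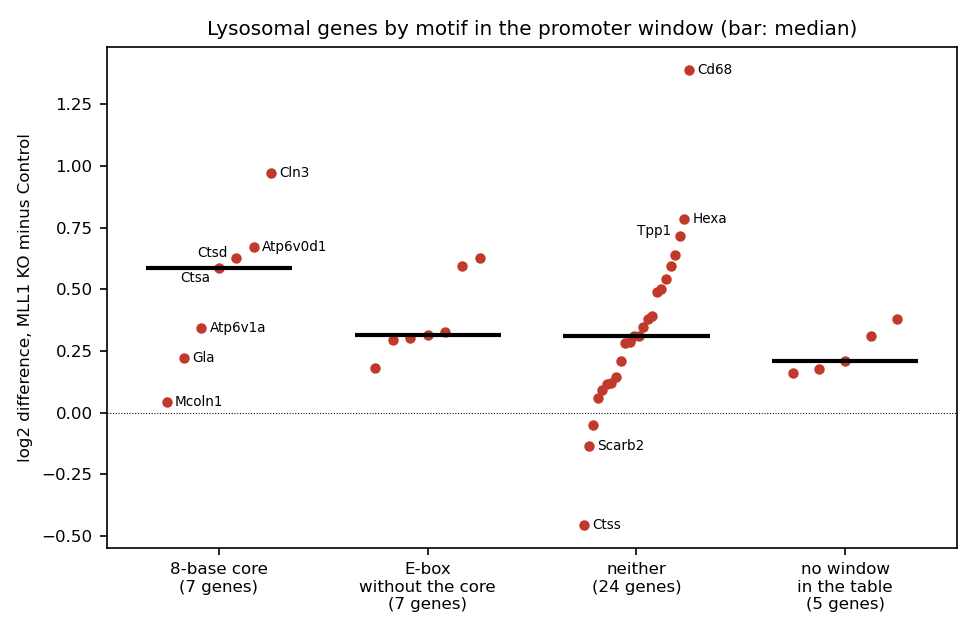
The log2 difference (Mll1 cKO minus Control) of each lysosomal gene is plotted by the motif found in its promoter window, with bars at the medians, which are 0.59, 0.31, 0.31 and 0.21 from left to right. Cln3 leads the 7 genes with the 8-base core and Mcoln1 is lowest among them, while Cd68 and Ctss mark both ends of the 24 genes with neither motif.

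Lysosomal genes outside the 43 were also mostly higher. Of 34 other hydrolases and cofactors, 27 were higher and 6 lower, against 41.6% and 55.6% of all genes, and the median difference was 0.32. Among the 28 with a signal over 7, 25 were higher, against 59.0% of all genes with such a signal. None of the 34 passed 2-fold, and 4 were over 1.5-fold higher with none over 1.5-fold lower, against 5.09% and 2.17% of all genes. Arsa, the arylsulfatase that breaks down sulfatide, had the largest difference, with signals of 5.86 and 6.74, a 1.84-fold higher level. Of 46 other membrane proteins and transporters, 34 were higher and 12 lower, and the median was 0.18. Among the 38 of them with a signal over 7, 31 were higher, against the same 59.0%. Over 1.5-fold higher were 2 of the 46, a share near that of all genes. Ctns, the cystine exporter, had 8.14 and 9.13 and was 1.98-fold higher, and Gpnmb, a glycoprotein of lysosomes and melanosomes named here after its values were seen, had 8.81 and 9.77.

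The other subunits of the proton pump differed both ways. Of 20, 12 were higher and 7 lower, the median was 0.12, and 3 were over 1.5-fold higher, against 5.09% of all genes. Among the 14 with a signal over 7, 12 were higher, with a median of 0.19. Of all genes with such a signal 59.0% were higher, with a median of 0.06. Atp6v0e2, a small subunit of the membrane sector, had the largest difference, from 6.32 to 7.04. Atp6v0a1, an isoform of the large membrane subunit, had 8.47 and 9.12 and was named after its values were seen.

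Genes of autophagy, the pathway that delivers cargo to lysosomes, were mostly higher as well. Of 48, 40 were higher and 8 lower, against 41.6% and 55.6% of all genes, and the median was 0.31. Among the 44 with a signal over 7, 38 were higher, against 59.0% of all genes with such a signal. Over 1.5-fold higher were 5 of the 48, against 5.09% of all genes. Map1lc3a, which encodes a protein of the LC3 family that coats autophagosomes, had signals of 7.65 and 8.79 and was 2.20-fold higher. It was the only gene of this list over 2-fold, against 1.22% of all genes over 2-fold higher. The 31 genes of mTORC1 signalling and other regulators of TFEB included the related factor gene Tfec. Of these 31, 23 were higher and 8 lower, against 41.6% and 55.6% of all genes. Among the 27 with a signal over 7, 20 were higher, with a median of 0.19. Of all genes with such a signal 59.0% were higher, with a median of 0.06. The median of the 31 was 0.20, and 1 was over 1.5-fold higher, a share near that of all genes. Lamtor4, a subunit of the complex that holds mTORC1 on the lysosome, was that gene and farthest from 0, with 8.72 and 9.31.

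Cystatins, other protease inhibitors and the proteasome, the other main protease of the cell, were read for comparison. Of 9 inhibitors, 6 were higher and 3 were lower, against 41.6% and 55.6% of all genes. Over 1.5-fold higher were 3 of them, against 5.09% of all genes. Only 4 of the 9 exceeded 7 in either array, and these 4 were higher. The serpin genes Serpinb9, with 4.30 and 5.22, and Serpinb1a, with 5.03 and 5.73, passed 1.5-fold at weak signals. These serpin genes are not cystatins, and they were named after their values were seen. Cst6, which encodes cystatin E/M, an inhibitor of legumain and cysteine cathepsins, was 1.97-fold higher, from 7.92 to 8.90. Of 48 proteasome genes, a list added after results were seen, 19 were higher and 29 lower. The list took all symbols from Psma to Psmg, so it holds some assembly factors and regulators beside the subunits. The median difference of the 48 was -0.06, against 0.31 for the lysosomal genes. Of the 43 with a signal over 7, 18 were higher, against 59.0% of all genes with such a signal. The difference between these lists could not be tested with 1 array in each condition.

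**Figure D5:**
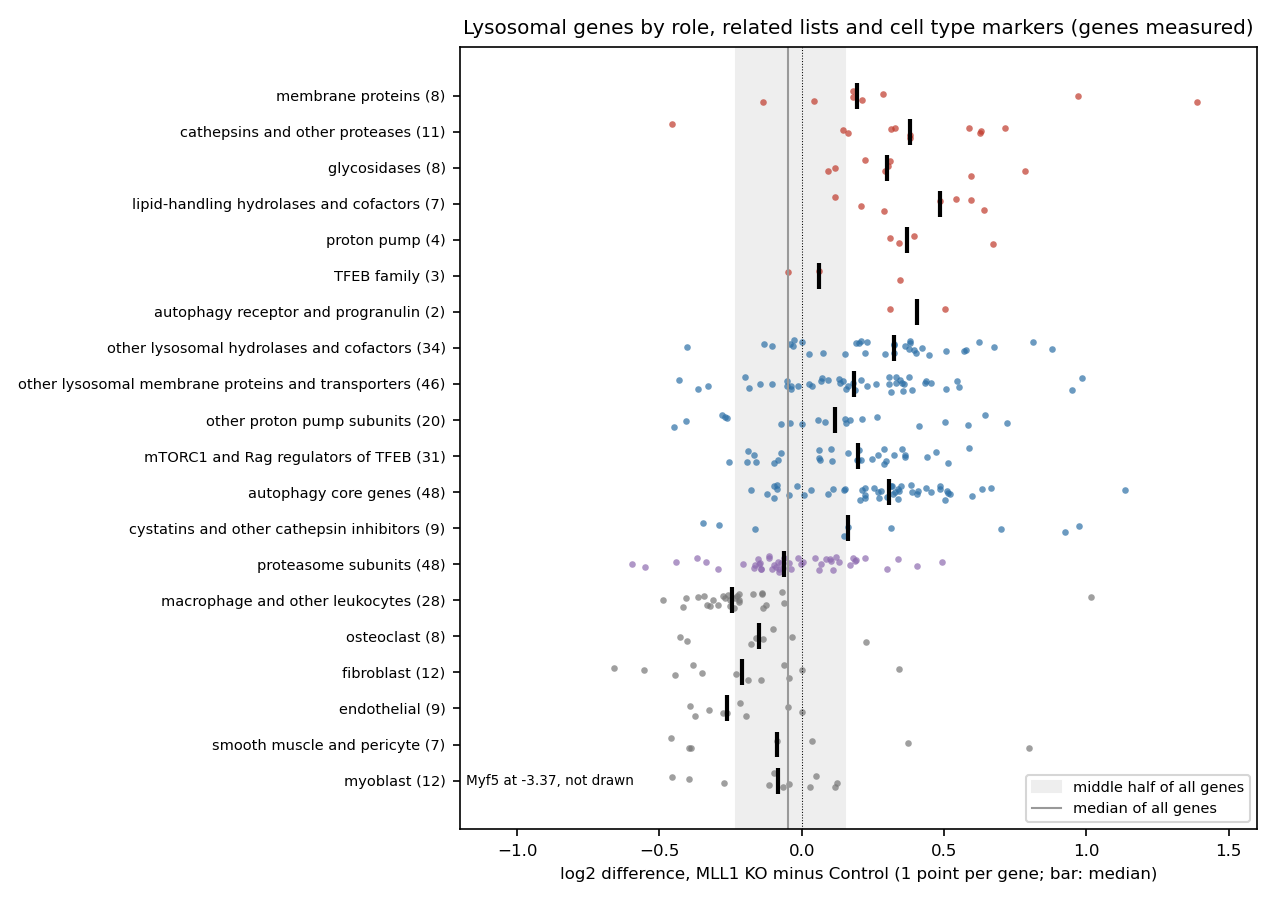
Each point is the log2 difference (Mll1 cKO minus Control) of 1 gene. The groups are lysosomal genes by role (red), other fixed lists (blue), proteasome genes, labelled as subunits (purple), and cell type markers (grey). Numbers of genes are in brackets, black bars mark the medians, and the middle of all genes (25th to 75th percentile) is shaded. Right of the shaded band lie the medians of the red lists other than the TFEB family. The medians of the blue lists, other than the remaining proton pump subunits, lie there too. That of the TFEB family lies within the band at 0.06, and the leukocyte and endothelial medians, -0.25 and -0.26, lie left of it.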

How the data were processed

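The authors deposited log2 signals for 35557 probe sets on each of 2 MoGene 1.0 ST arrays, made with RMA, which corrects background, quantile normalizes arrays and summarises probes. Its version and the genome build are not given in the labels or methods. Groups came from the sample titles. Of the probe sets, 21789 had 1 symbol in the platform's annotation, 1621 had several and 12147 had none here, and only the first were used. Counts of folds used any probe set of a gene, and medians and signs used their mean. Members, lists and the 2-fold and 1.5-fold cut-offs were chosen with earlier results of these data known. Values are given for Cd68, members over 1.5-fold, the extremes of each role, the TFEB family, the genes over 2-fold or farthest from 0 of each list, and the strongest marker of each cell type. The proteasome list was added and further genes were named after their values were seen. For 1 listed gene the symbol was matched through a RefSeq synonym. Alternatives were signal filters of 7 and 8, centring on the median, removal of a lowess trend (span 0.3), quantile normalization, other cut-offs and the brightest probe set. The functions were tested on simulated data. Python 3.11.15, numpy 2.4.6, pandas 2.3.3, statsmodels 0.14.6 and matplotlib 3.10.9 were used.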

Additional observations from a re-analysis of the deposited data

How the results depend on the processing

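The median log2 difference of the members stayed between 0.28 and 0.36 in all settings, and between 34 and 41 members were higher, with fewer where dim probe sets were left out. The number of lower members, 3, became 1 with a signal over 7 or over 8 and 5 after quantile normalization. The count over 2-fold, 1, became 11 at 1.5-fold, 0 at 3-fold, 0 with a signal over 8, which leaves out Cd68, and 2 after centring, with Cln3. The count over 1.5-fold, 11, became 7 with the trend on signal removed and 7 after quantile normalization. The median of the TFEB family was 0.22 with a signal over 7 (Tfe3 and Mitf), 0.35 over 8 (Tfe3 alone) and -0.045 after quantile normalization. The other lysosomal membrane proteins had 0.31 with a signal over 8. Marker medians rest on few genes where dim probe sets were left out: the leukocyte list became 1.02 over a signal of 7 (Cd53 alone), the fibroblast list -0.45 over 7 and over 8, and smooth muscle and pericytes 0.59 over 7, 0.37 over 8 and 0.078 without the trend. Without the trend, osteoclast markers had 0.040, leukocyte markers -0.065 and endothelial markers -0.058. The causes of these shifts were not tested beyond the genes that a filter removes. No paired analysis was possible because each group has 1 array, and no array could be left out.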

Other observations

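Outside the 43 genes, with other lysosomal genes still included, the core TCACGTGA was found in the promoter windows of 226 measured coding genes, of which 60.2% were higher, against 42.4% of those without it. Among genes with a signal over 7 the shares were 63.1% of 179 genes and 59.0%, with medians of 0.09 and 0.06.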
